A study of Mus musculus with 87 samples.

Results

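Mouse embryonic stem cells (ESC) in which Suz12 was knocked out in full were compared with their wild type (WT) by sequencing of polyA RNA, and the members described here are the genes with a baseMean of at least 10 in the authors' table of that comparison. The baseMean is the average read count of a gene over the compared libraries after scaling for depth. Of the 26171 gene symbols of the table, 15094 met this limit, and they held 99.95% of the summed baseMean of 29341200 scaled reads per library. The WT group had 3 samples and the knock-out (KO) group 3 samples, both of the ESC line 129-B13, grown in serum (20%) with the cytokine LIF. No source used here says whether the samples of a group are separate cultures or whether the knock-out cells are 1 clone, so the p-values may measure technical spread only. The series has 87 samples, 32 of RNA and 55 of chromatin immunoprecipitation. Other ESC groups that are set beside the knock-out below are KO cells rescued with the long (KO-L) or the short (KO-S) isoform of Suz12, the same rescues carrying what the labels name the 3D mutation, placed in the Rosa26 locus (KO-L3D and KO-S3D), cells in which exon 4 of Suz12 is constitutive (CSex4) and cells in which it is deleted (Deltaex4), with 2 samples each. Neural precursors (NP) of the KO (2 samples) and of the WT (4 samples) were also sequenced.

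The Suz12 protein belongs to PRC2, a Polycomb repressive complex that places methyl groups on lysine 27 of histone H3 (H3K27me3). In ESC this mark lies over the promoters of many genes for developmental regulators, such as the Hox genes, which are silent or barely transcribed there, and the complex PRC1 reads it. Without Suz12 the catalytic subunits Ezh1 and Ezh2 lose stability and activity, and ESC can still divide.

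The targeted gene was lower. Suz12 (chr11:79993106-80034123 in GRCm38.p6) had a log2 fold change of -1.82 ± 0.22 (SE; adjusted p 8.21e-15) in the authors' deposited table, with implied mean levels of 6439 scaled reads in WT and 1829 in KO. Group levels of this kind were computed here from the baseMean and the fold change of the 3 and 3 libraries and are approximate. Values of single samples are not used here, so the spread between samples enters only through each gene's standard error (SE), and whether the single samples of the groups overlap is not shown. The markers fixed for ESC, 7 genes such as Pou5f1 and Sox2, all had a baseMean between 3924 and 29294. Of 8 markers fixed for fibroblasts, which are often used as feeder cells, 4 reached a baseMean of 10 and the highest was 197. The summed level of the 8 was 426 in WT and 664 in KO. Only Thy1 of them had an adjusted p under 0.05, and it was higher. Col1a1, Col1a2 and Col3a1 had log2 fold changes of -0.06, -0.03 and -0.29 in the authors' deposited table.

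Gene expression changed widely, and among the genes kept the upward changes were the larger ones. In the authors' deposited table, 3019 genes (20.0%) had an adjusted p under 0.05 and are termed called, 1789 higher (11.9%) and 1230 lower (8.15%) in KO. With a log2 fold change of at least 1 in either direction the counts were 1347 higher (8.92%) and 291 lower (1.93%). At 2 or beyond they were 635 higher and 52 lower, and at 4 or beyond 145 higher and 1 lower. The genes called higher had a median log2 fold change of 1.60 and a median baseMean of 155, and those called lower -0.70 and 1685. The 2 sets thus differed in level as well as in direction. Of those called higher, 345 had an implied WT level under 10 scaled reads and 55 under 1, where the fold depends on very few WT reads. These 345 passed the baseMean limit only through their KO level. Of those called lower, 12 had an implied KO level under 10 and passed through their WT level. The counts of rises and falls are thus not independent of the limit. The genes under the baseMean limit included 73 further calls, all higher. At the limit, Cd7 (9.996; log2 fold change 2.97) lay just outside and Ptpro (10.005; 3.25) just inside in the authors' deposited table.

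The zero line of the comparison bears on the smaller changes. The median log2 fold change was -0.02 over all 15094 genes and -0.19 over the 5539 genes with a baseMean of at least 1000. Taking the latter as zero left the total near 3071 calls but turned the split to 2533 higher and 538 lower, from 59.3% higher to 82.5% higher. Calls of small falls among abundant genes thus depend on the zero chosen, and changes below are relative to that of the authors. Among the members of the gene lists below, 13 calls were lost with the other zero, all of them lower calls (Eed, Rbbp4, Cbx6, Pcgf6, Kdm6a, Nsd1, Lin28a, Foxa3, Foxh1, Rara, Ddx58, Trib3 and Sesn2), and 17 rises were gained, Aebp2, Ddx4 and Igf2 among them. In the lowest of 10 equal classes of genes by baseMean, 14.3% were called higher and 0.464% lower, and in the highest class 3.25% were called higher and 19.7% lower. The share called higher peaked in the third class, between 66.5 and 157 scaled reads, at 24.1%.

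**Figure D1:**
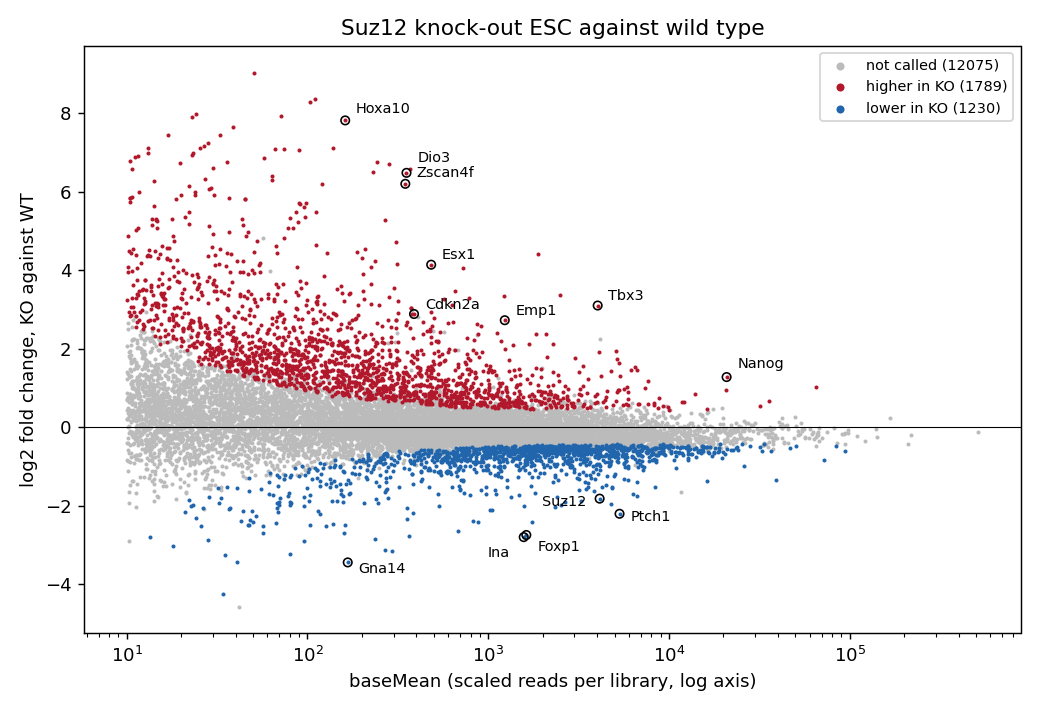
Each point is 1 of the 15094 genes, with its baseMean on a log axis and its log2 fold change in KO against WT from the authors' table. Genes called higher (1789, red) spread to large values at low baseMean, and most genes called lower (1230, blue) lie close to zero at high baseMean.

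The 12 largest rises among called genes with a baseMean of at least 100 fell into a few kinds. They included 5 genes of the Zscan4 cluster on chromosome 7 and Gm21761, 2 homeobox or zinc finger regulators of limb and trunk pattern (Hoxa10 and Osr2), the imprinted deiodinase gene Dio3, which encodes an enzyme that inactivates thyroid hormone, the X-linked Xlr3a, and Tmem92 and Gm36718. The largest of the 12 was Tmem92, at 8.35 ± 1.07 (log2, SE; adjusted p 5.26e-13) in the authors' deposited table, but its implied WT level was 0.667 scaled reads, so the size of the fold is not well defined. Osr2 had the same limit, with 0.658 scaled reads in WT and 205 in KO. Hoxa10 had a log2 fold change of 7.81 ± 1.43 (adjusted p 1.54e-06) in the authors' deposited table, from an implied 1.43 to 322 scaled reads. Dio3 reached 6.48 ± 0.51 (adjusted p 2.17e-33) in the authors' deposited table, from 7.83 to 698 scaled reads. Xlr3a stood at 5.48 ± 0.58 (adjusted p 1.75e-18) in the authors' deposited table. It has near-identical neighbours. By the smallest adjusted p, the leading rises were Esx1, Gm5662, Cbln1, Zscan4f and Emp1. Esx1, a homeobox gene of the placenta, went from an implied 51.9 to 915 scaled reads (log2 fold change 4.14 ± 0.25, adjusted p 9.23e-58 in the authors' deposited table). Emp1, an epithelial membrane protein gene, went from 324 to 2145 scaled reads. A rise in every cell and a larger number of cells that express a gene cannot be told apart in bulk RNA, here and for every group below.

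The 12 largest falls, ranked among called genes with the same baseMean minimum as the rises, had implied WT levels between 176 and 2826 scaled reads. A gene that falls has an implied WT level above its baseMean, so this minimum kept genes with few WT reads out of the ranking. Whether large falls are particular to well expressed genes is therefore not shown by these levels. Gna14, which encodes a G protein alpha subunit, had a log2 fold change of -3.44 ± 0.50 (adjusted p 5.33e-10) in the authors' deposited table, from an implied 306 to 28.2 scaled reads. Ina, the gene of the neurofilament protein alpha-internexin, stood at -2.80 ± 0.22 (adjusted p 6.45e-34) in the authors' deposited table, from 2748 to 396 scaled reads. Foxp1, a forkhead transcription factor with an ESC-specific splice form, had -2.74 ± 0.19 (adjusted p 1.82e-42) in the authors' deposited table, from 2826 to 423 scaled reads. The vitamin C transporter gene Slc23a1 and the metal ion transporter gene Slc39a8 had log2 fold changes of -2.78 and -2.49 in the authors' deposited table. Others among the 12 were Naprt, an enzyme of NAD synthesis from nicotinic acid, the aspartic protease gene Napsa, the zinc finger gene Zfp608, the homeobox gene Nkx6-3, Mroh6 and 2610037D02Rik. Ptch1, the receptor for hedgehog ligands and itself a target of that pathway, was among the 5 falls with the smallest adjusted p and went from 8751 to 1903 scaled reads, at -2.20 ± 0.17 (adjusted p 1.18e-36) in the authors' deposited table.

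Promoter sequences are shown for the 3 largest rises and 3 largest falls of this kind that had an entry, because they differ in CpG content and in whether the start lay in a Polycomb region. Each runs 5′ to 3′ on the gene's own strand, from 250 bases before to 50 bases after the annotated start, is taken from RefSeq (GRCm38.p6), and has every CG dinucleotide in capitals.
Hoxa10: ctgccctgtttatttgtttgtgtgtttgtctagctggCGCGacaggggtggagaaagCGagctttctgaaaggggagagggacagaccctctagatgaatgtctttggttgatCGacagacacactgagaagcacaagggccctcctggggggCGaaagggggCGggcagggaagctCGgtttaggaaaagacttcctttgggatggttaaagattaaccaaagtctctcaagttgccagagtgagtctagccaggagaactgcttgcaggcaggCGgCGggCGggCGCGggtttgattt
Zscan4b: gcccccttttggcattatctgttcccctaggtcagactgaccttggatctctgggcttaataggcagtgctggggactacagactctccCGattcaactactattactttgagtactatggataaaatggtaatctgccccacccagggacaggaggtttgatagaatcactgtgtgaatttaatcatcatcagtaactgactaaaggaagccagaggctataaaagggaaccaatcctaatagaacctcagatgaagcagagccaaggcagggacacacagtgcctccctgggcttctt
Zscan4c: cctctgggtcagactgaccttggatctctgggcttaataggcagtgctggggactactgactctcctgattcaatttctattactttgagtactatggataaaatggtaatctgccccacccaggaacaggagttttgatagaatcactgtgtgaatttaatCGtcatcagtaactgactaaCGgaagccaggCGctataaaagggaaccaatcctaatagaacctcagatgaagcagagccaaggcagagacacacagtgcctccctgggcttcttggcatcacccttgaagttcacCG
Gna14: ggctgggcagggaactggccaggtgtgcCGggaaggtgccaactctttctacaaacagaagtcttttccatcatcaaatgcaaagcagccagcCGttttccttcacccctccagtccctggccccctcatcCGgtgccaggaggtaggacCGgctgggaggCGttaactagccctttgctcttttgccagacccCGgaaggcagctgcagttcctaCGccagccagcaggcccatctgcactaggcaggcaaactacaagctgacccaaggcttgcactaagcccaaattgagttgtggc
Ina: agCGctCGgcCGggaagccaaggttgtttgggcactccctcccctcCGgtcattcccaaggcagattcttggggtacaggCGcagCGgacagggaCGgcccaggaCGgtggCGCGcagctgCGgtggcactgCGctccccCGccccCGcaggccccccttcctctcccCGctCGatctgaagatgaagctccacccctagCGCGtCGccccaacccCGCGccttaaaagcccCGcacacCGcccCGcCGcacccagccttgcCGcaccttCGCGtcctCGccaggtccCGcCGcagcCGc
Foxp1: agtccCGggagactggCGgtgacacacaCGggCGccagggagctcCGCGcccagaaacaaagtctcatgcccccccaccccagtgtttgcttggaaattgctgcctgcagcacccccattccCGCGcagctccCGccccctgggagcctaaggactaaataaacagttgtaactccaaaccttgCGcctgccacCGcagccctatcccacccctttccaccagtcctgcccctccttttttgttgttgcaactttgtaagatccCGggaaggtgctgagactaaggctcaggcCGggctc
Hoxa10 is at chr6:52240805-52241104 (minus strand), Zscan4b at chr7:10905001-10905300 (minus), Zscan4c at chr7:11005495-11005794 (plus), Gna14 at chr19:16435417-16435716 (plus), Ina at chr19:47014431-47014730 (plus) and Foxp1 at chr6:99520944-99521243 (minus). Hoxa10 has 2 promoter entries and Foxp1 has 3, and the first listed entry of each is printed. The Hoxa10 sequence holds 12 CG and its start lay in both an H3K27me3 and a Suz12 region of WT cells, inside a single H3K27me3 region of 119430 bases. The Zscan4b and Zscan4c sequences hold 1 and 4 CG and lay in no such region. They share a run of 55 bases and 259 bases in matching blocks of at least 5. No other pair of the 6 approaches this (at most 59 bases in such blocks). Only 50 bases of each window follow the start, so this does not show how alike the transcripts are. Reads of these paralogs may be split or shared between them, which was not tested, so the values of single Zscan4 genes are uncertain. Among the falls, Foxp1 (13 CG) lay in both kinds of region, Ina (32 CG) in an H3K27me3 region only and Gna14 (7 CG) in neither. For scale, 40.1% of the 27025 promoters of the RefSeq table hold at least 12 CG, 9.24% hold at least 32 and 94.2% hold at least 1.

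Among the subunits of PRC2 itself, 4 of 6 core genes were called lower and none higher, where 8.15% of all genes were called lower. The 6 genes had baseMeans from 1034 to 18924. In the classes of genes by baseMean that span these levels, 8.87% to 19.7% were called lower. Of the 4 genes called lower, 1 was Suz12, the gene that was knocked out. Beside Suz12 these were Rbbp7 (-0.84 ± 0.19, adjusted p 2.40e-04), Eed (-0.56 ± 0.17, adjusted p 0.0109) and Rbbp4 (-0.53 ± 0.17, adjusted p 0.0110) in the authors' deposited table, of which Eed binds the finished mark and Rbbp4 and Rbbp7 bind histones. With the zero set on abundant genes, 2 of the 4 kept their call, Suz12 (-1.62, adjusted p 5.15e-12) and Rbbp7 (-0.65, adjusted p 0.00614). The catalytic subunit genes were not called, with Ezh2 at -0.17 ± 0.16 and Ezh1 at 0.05 ± 0.25 in the authors' deposited table. Of 8 accessory genes, 2 were called higher. Ezhip, an inhibitor of PRC2, went from an implied 97.0 to 430 scaled reads (2.15 ± 0.32, adjusted p 1.19e-09 in the authors' deposited table). Epop, a partner of Elongin, was also higher (0.99 ± 0.25, adjusted p 8.71e-04 in the authors' deposited table). The genes Jarid2, Mtf2 and Aebp2 were not called.

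Of 23 genes of the partner complex PRC1, 7 were called higher (30.4%, against 11.9% of all genes). Another 2, Cbx6 and Pcgf6, were called lower (8.70%, against 8.15%), and both lost that call with the zero set on abundant genes. The rises included the chromodomain gene Cbx8 (3.64 ± 0.57), the BCOR-like gene Bcorl1 (3.04 ± 0.41) and Bmi1 (2.46 ± 0.29), which encodes a partner of the ubiquitin ligase Ring1b, in the authors' deposited table. Cbx7, the main chromodomain subunit of ESC, was not called (-0.49 ± 0.20, adjusted p 0.0729 in the authors' deposited table). Its implied level was 5602 scaled reads in WT and 3981 in KO, while Cbx8 went from 9.95 to 124. Of 18 members with a promoter entry, 5 had their start in a Suz12 region. Among 13 enzymes that add or remove methyl or acetyl groups on H3K27 or act against it, Nsd1 and Kdm6a were called lower and Kmt2c higher, all within 0.63 on the log2 scale in the authors' deposited table. Of 10 genes of DNA methylation only Zfp57, which protects imprints, was called (0.95 ± 0.24, adjusted p 0.00145 in the authors' deposited table). Dnmt3b had -1.65 ± 0.74 in the authors' deposited table and was not called, with an SE 4.01 times that of genes of like level.

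Of 12 naive pluripotency factors, 5 were called higher (41.7%, against 11.9% of all genes) and 1 lower (8.33%, close to the 8.15% of all genes). Tbx3 had the largest change, 3.10 ± 0.27 (adjusted p 2.38e-28) in the authors' deposited table, from an implied 842 to 7222 scaled reads. Prdm14 (1.98 ± 0.29), Klf4 (1.46 ± 0.23) and Nanog (1.28 ± 0.20) were also higher, and Nr0b1 was lower (-1.06 ± 0.26), in the authors' deposited table. Esrrb, Zfp42 and Fgf4 were not called. Of 13 core and formative genes, 5 were called lower (38.5%, against 8.15% of all genes) and 1 higher (7.69%, against 11.9%). Otx2 and Fgf5 of that list were not called (-0.14 ± 0.35 and -0.42 ± 0.52 in the authors' deposited table). The falls included Pou3f1 (-1.14 ± 0.33), Lin28b (-1.05 ± 0.20) and Utf1 (-0.75 ± 0.19) in the authors' deposited table. Pou5f1, the central pluripotency factor, had 0.07 ± 0.16 and Sox2 had -0.20 ± 0.20 in the authors' deposited table, and neither was called.

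Genes of the 2-cell-like state were called higher throughout. This is a rare state of ESC that expresses transcripts of the cleavage embryo. Of its 11 listed genes 9 are in the table, and all 9 were called higher, against 7.11% of all symbols. Their median log2 fold change was 6.50, or 6.20 when the 3 genes with under 1 scaled read in WT are set at that bound. In the authors' deposited table, Zscan4b had 6.76 ± 0.60 (adjusted p 1.39e-26), Zscan4a at 6.70 ± 1.19 (adjusted p 6.93e-07), Zscan4c at 6.57 ± 1.35 (adjusted p 2.65e-05) and Tcstv3 at 7.98 ± 1.38 (adjusted p 2.96e-07). The summed level of the list went from 34.7 to 3052 scaled reads. No member had an implied WT level of 10, so each would have had little chance to be called lower. Of the 6 members with a promoter entry, 6 lay in neither kind of Polycomb region. So did 82.8% of the 10524 protein-coding genes placed below, so this is not particular to the list.

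The Hox genes, which set position along the body axis, were called higher in 32 of 39 cases and lower in none, members under the baseMean limit included, where 7.11% of all 26171 symbols were called higher and 4.70% lower. Of the 39, 29 reached the baseMean limit and 4 had an implied WT level of at least 10, so nearly all started from almost no transcript. Over all 39 the median log2 fold change was 4.13 (3.97 with 14 genes set at the bound of 1 scaled read) and the summed level 199 in WT and 3038 in KO. Next to Hoxa10, the largest values in the authors' deposited table were Hoxa11 (7.93 ± 1.79), Hoxa13 (7.45 ± 1.45) and Hoxd10 (7.44 ± 1.32), all posterior members of their clusters. Hoxa10 and Hoxa11 also had SEs 4.52 and 4.13 times that of genes of like level. The 7 genes that were not called all had a positive fold change and a baseMean under 10. Of the 22 Hox genes with a promoter entry, 21 started in a Suz12 region and the other in an H3K27me3 region only.

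Other developmental homeobox and Pax genes followed with 33 of 66 called higher and 1, Gbx2, lower (-1.14 in the authors' deposited table). In the authors' deposited table the leading rises were Dlx6 (4.84 ± 1.77, baseMean 5.30), Six3 (4.63 ± 1.16), Nkx2-3 (4.49 ± 1.31) and Pitx1 (4.46 ± 0.60). Pax6, a neural and eye regulator with a Suz12 region at its start, was not called (-0.82 ± 0.50 in the authors' deposited table). Of the 48 with a promoter entry, 47 started in a Suz12 region. Forkhead factors were split, with 4 of 20 called higher and 4 lower (20.0% each). These counts are small, and 11.9% of genes above the baseMean limit were called higher and 8.15% lower. The rises included Foxd1, Foxc2 and Foxf1, between 3.04 and 5.13 in the authors' deposited table. The falls were Foxp1, Foxj1, Foxo1 and Foxh1, between -2.74 and -0.64 in the same table. The 3 rises named began from 1.43 to 3.98 scaled reads in WT and the falls from 172 to 2826.

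Of 24 trophoblast genes, 14 were called higher and none lower, where 7.11% of all symbols in the table were called higher and 4.70% lower. They were led by Esx1, the transcription factor genes Gata3 (3.27 ± 0.41) and Tfap2a (3.23 ± 0.45) and Hand1 (3.13 ± 0.55) in the authors' deposited table. The keratin genes Krt8 and Krt18, with the highest baseMean of the list, were not called (0.29 ± 0.75 and 0.53 ± 0.37 in the authors' deposited table). Of 28 genes of the primitive streak, mesoderm and heart, 14 were called higher and none lower. Hand2 (6.74 ± 1.40), Gsc (5.31 ± 0.83), Isl1 (4.42 ± 0.70) and Tbx5 (4.25 ± 1.04) led in the authors' deposited table, each from an implied WT level under 4 scaled reads. Of 22 endoderm genes, 2 were called higher (Foxa1 and Cxcr4) and 1 lower (Foxa3), or 9.09% and 4.55%, near the shares of all symbols. Gata4, Gata6 and Sox17, regulators of primitive endoderm, had log2 fold changes of 1.46 ± 1.11, 2.69 ± 1.37 and 3.99 ± 2.11 in the authors' deposited table, and none was called. The 6 markers fixed for primitive endoderm had a summed level of 1217 scaled reads in WT and 2150 in KO.

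Of 15 neural progenitor genes, 3 were called higher (Neurog1, Sox3 and Olig2) and Sox11 lower (-1.57 ± 0.22, adjusted p 1.68e-10 in the authors' deposited table). Of 20 genes of neuronal structure, Sncg, Nefm, Ncam1 and L1cam were called higher and Ina and the kinesin gene Kif1a lower (-1.27 ± 0.19 for Kif1a in the authors' deposited table), while Tubb3 and Stmn2 were not called. These counts are small, and 20.0% of the genes of both lists were called higher, against 11.9% of genes above the baseMean limit and 7.11% of all symbols. Of 15 neural crest and epithelial-mesenchymal genes, 6 were called higher, with Zic1, Sox10, Snai2 and Foxd3 between 1.87 and 2.66 in the authors' deposited table. Fn1 and Cdh1, which have the highest baseMean of that list, were not called.

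Germline genes, many of them active in meiosis and in defence against transposons, were called higher in 14 of 22 cases and lower in 1. These shares were 63.6% and 4.55%, against 11.9% and 8.15% of all genes. In the authors' deposited table Asz1 had 4.40 ± 0.82, Fkbp6 3.65 ± 0.40, Sohlh2 3.34 ± 0.34 and Tex101 3.20 ± 0.59. Unlike the Hox genes, 21 of the 22 had an implied WT level of at least 10. Of the 19 with a promoter entry, 2 started in a Suz12 region, 9 in an H3K27me3 region only and 8 in neither. Ddx4 and Dmrt1 were not called. Among 33 imprinted genes, 5 were called higher (15.2%) and 4 lower (12.1%), against 11.9% and 8.15% of all genes, shares that lie close together at this number of members. H19 (4.41 ± 1.16) and Plagl1 (2.65 ± 0.26) rose and Nnat (-2.17 ± 0.51) fell in the authors' deposited table.

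Beside the counts of this paragraph, 11.9% of genes above the baseMean limit were called higher and 8.15% lower. Of all symbols, 7.11% and 4.70% were. Of 36 Wnt genes, 8 were called higher (22.2%) and 2 lower (5.56%, near these shares). The ligands Wnt3a (3.96 ± 0.69) and Wnt6 (2.33 ± 0.58) were up and the receptor Fzd7 down (-1.88 ± 0.22) in the authors' deposited table. Ctnnb1, the gene of beta-catenin, was not called. Of 34 BMP, Nodal and TGF-beta genes, 9 were called higher and none lower, among them the inhibitory Smad6 (1.68 ± 0.48), the ligand Bmp7 (1.57 ± 0.35), the Nodal inhibitor Lefty2 (1.54 ± 0.35) and the target Id3 (1.35 ± 0.30) in the authors' deposited table. Of 17 retinoic acid genes, 6 were called higher, led by the binding protein gene Crabp1 (2.21 ± 0.25 in the authors' deposited table), and the receptor gene Rara was lower. Among 18 cyclins and inhibitors of cyclin-dependent kinases, 5 were called higher (27.8%) and 2 lower (11.1%). Cdkn2a, the locus of p16 and p19 and a classic Polycomb target, went from an implied 92.7 to 684 scaled reads (2.88 ± 0.29, adjusted p 2.08e-20 in the authors' deposited table). Ccnd2 was higher as well (2.58 ± 0.28), and Cdk6 was lower (-1.70 ± 0.23), in the authors' deposited table.

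The counts of the next lists stand against 20.0% of genes above the baseMean limit (11.9% higher and 8.15% lower), and 7.11% higher and 4.70% lower of all symbols. No member of 32 ribosomal protein genes was called by DESeq2, and none had an unadjusted p under 0.05, with log2 fold changes between -0.24 and 0.23 in the authors' deposited table. Of 19 glycolysis genes, Pfkp (1.47 ± 0.16) and Hk1 (0.79 ± 0.21) were called higher in the authors' deposited table, and of 18 ATF4 targets Asns was higher and Trib3 and Sesn2 lower. Interferon and antigen presentation genes were called higher in 5 of 27 cases, with Oas1a at 2.16 ± 0.35 and H2-K1 at 1.13 ± 0.21 in the authors' deposited table, and lower in 2, so that 25.9% were called. Of 20 collagen genes, 6 were called higher, the largest Col26a1 (2.66 ± 0.60 in the authors' deposited table). Of 12 feeder fibroblast genes, Fbln2, Thy1 and Loxl1 were called higher and the fibroblast collagens Col1a1 and Col1a2 were not, at -0.06 ± 0.50 and -0.03 ± 0.57 in the authors' deposited table. The part of feeder cells in the collagen counts was not tested.

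**Figure D2:**
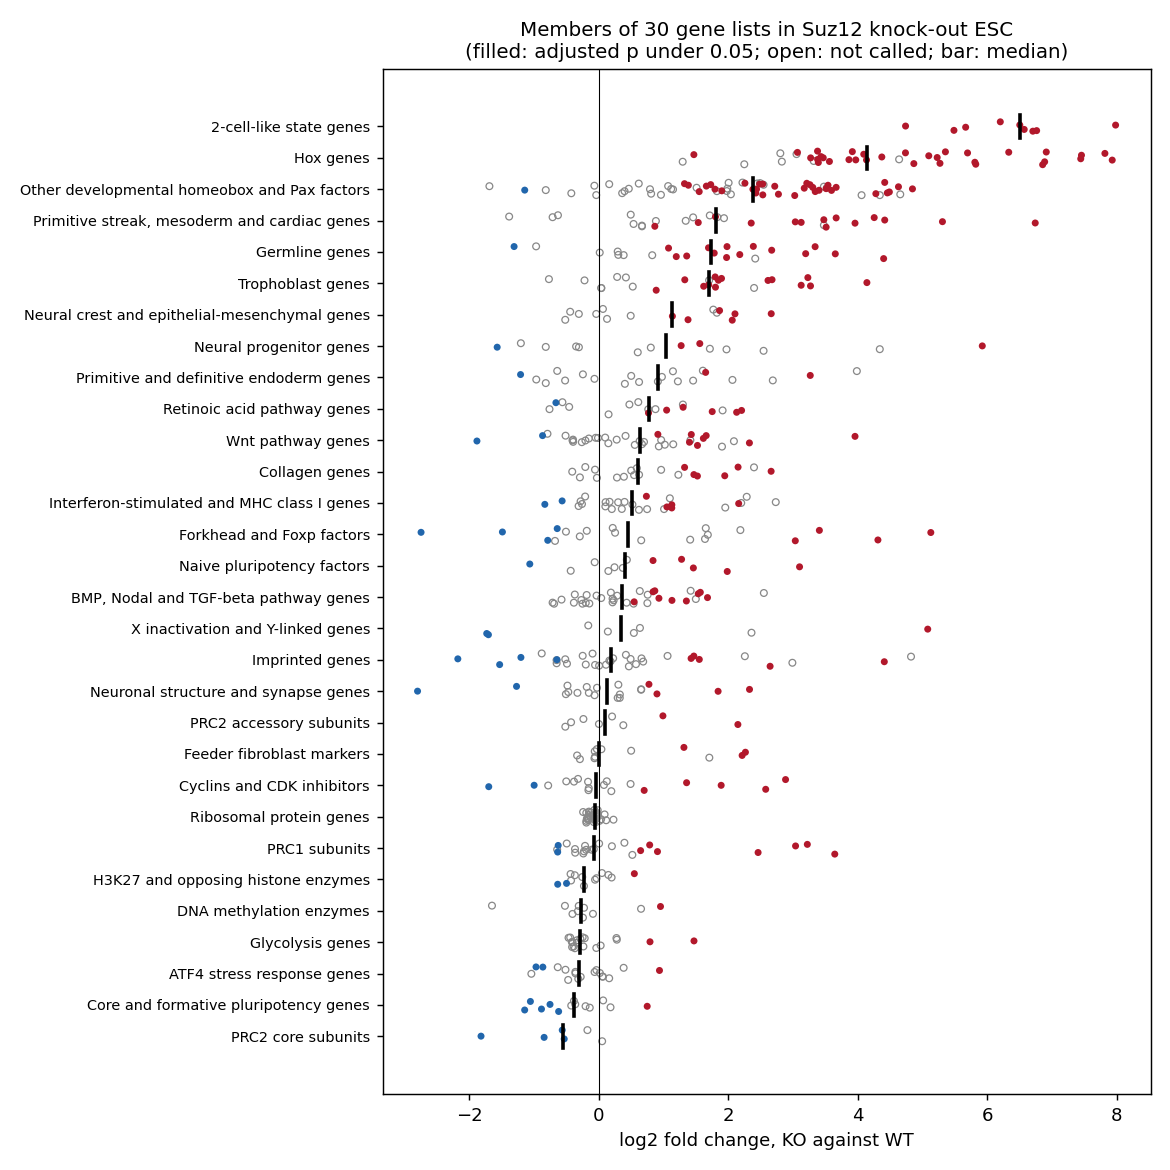
Each point is a member of 1 of 30 gene lists, placed by its log2 fold change in KO against WT from the authors' table. Filled points were called, open points were not, and black bars mark each list's median over members with a fold change. The 2-cell-like, Hox and other homeobox lists lie farthest to the right (medians 6.50, 4.13 and 2.38), and the PRC2 core list farthest to the left (-0.55).

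Where WT chromatin carried Polycomb marks was taken from the authors' region lists, 6882 regions for H3K27me3 and 2865 for Suz12 (mm10). The sources do not say which group WT was compared with to make them. Starts of 10524 protein-coding genes could be placed, on chromosomes where at least 70% of genes had a promoter entry (8, 15 and 18 are left out, a choice made after the coverage was seen). Entries existed for 80.1% of the genes called higher in that set, 84.9% of those called lower and 84.6% of the rest. Of 1066 genes that started in a Suz12 region, 36.2% were called higher (95% Wilson interval 33.4 to 39.1) and 3.66% lower. Of 743 genes in an H3K27me3 region without a Suz12 region, 23.4% were higher (20.5 to 26.6) and 4.31% lower. Of 8715 genes in neither, 7.64% were higher (7.10 to 8.22) and 9.16% lower. These intervals cover counting only and treat genes as independent, which they are not. Genes in the regions were also less expressed, with a median baseMean of 94.4, 170 and 842 in the 3 classes. Within each band of baseMean the Suz12 class had the largest share called higher. Between 100 and 300 scaled reads it was 44.9%, against 28.6% in H3K27me3 regions only and 13.0% in neither. At 1000 and over it was 20.5%, against 11.5% and 3.90%. The share called lower was largest at 1000 and over in all 3 classes, at 16.4%, 10.3% and 14.1%.

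**Figure D3:**
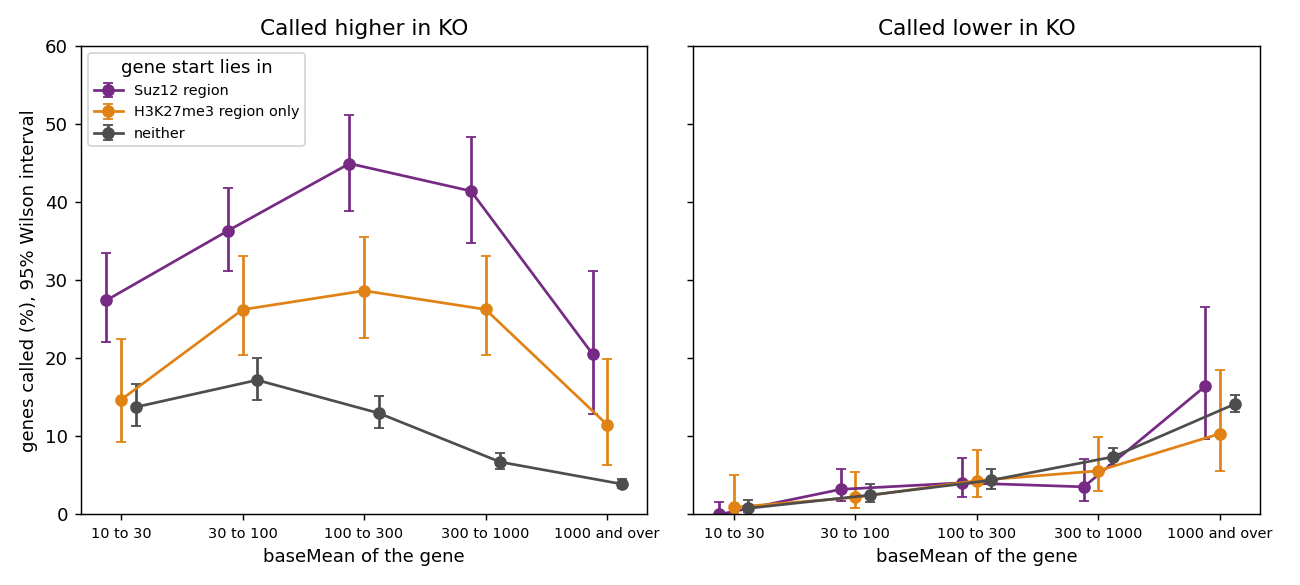
The share of protein-coding genes called higher (left) or lower (right) in KO is plotted by band of baseMean for genes that start in a Suz12 region, in an H3K27me3 region only, or in neither. Bars are 95% Wilson intervals. The Suz12 class lies highest in every band on the left, and the classes lie close together on the right.

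The share called higher also differed with the width of the H3K27me3 region. Among 4 equal classes of genes by width, in the narrowest (888 to 2672 bases) 21.7% were higher, and in the widest (6016 to 119430 bases) 44.0%, while the shares in between were 30.5% and 27.9%. The median baseMean fell from 246 to 64.0 along the same classes, and its part in the shares was not tested. Of all 10524 placed genes, 82.8% started in neither kind of region, and of those not called 86.0% did. Of 1226 genes called higher with an entry it was 54.3%, and of 419 called higher with a log2 fold change of at least 2 it was 50.8%. Of 869 called lower, 91.8% did.

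Promoters of the genes called higher differed in CpG content inside and outside the regions. Counting CG in the 300 bases around the start, genes called higher in Suz12 regions had a median of 25. Genes in Suz12 regions that were not called had 24 and those called lower 27, so this count was not particular to the rises. Genes called higher in neither region had a median of 11, against 20 for genes in neither region that were not called. In neither region, the share called higher was 16.0% in genes with at most 10 CG and 3.57% in those with at least 31. The share called lower ran the other way, from 6.18% to 13.7%. In Suz12 regions the share called higher was 27.7% in genes with at most 10 CG and between 35.8% and 38.4% in the 4 classes with more. Median baseMean in the neither class rose from 152 at most 10 CG to 1575 at 31 or more, and its part was not tested.

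By chromosome, shares varied. Of 574 X-linked genes, 20.4% were called higher and 11.7% lower, against 11.9% and 8.15% of all genes. Of 8 listed genes of X inactivation and the Y chromosome, 2 were called lower and 1, the Y-linked Kdm5d, higher (5.08 ± 1.26 in the authors' deposited table, from an implied 0.845 to 28.6 scaled reads). Rlim, an X-linked ubiquitin ligase gene that activates Xist, fell by 1.70 ± 0.19 on the log2 scale (adjusted p 5.33e-17), and the noncoding gene Ftx, a neighbour of Xist, by 1.73 ± 0.38 (adjusted p 1.30e-04), in the authors' deposited table. Chromosome 6, which carries the Hoxa cluster, had 16.7% higher and 5.71% lower. Chromosome 8 leaned the other way, with 8.38% higher and 12.4% lower and a median log2 fold change of -0.18. With a baseMean of at least 100 the median of chromosome 8 was -0.23, against -0.10 over all genes of that level. These chromosomes were named after their values were seen.

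Some genes had a far larger SE than others of their level. The SE was at least 3 times the median SE of the 201 genes nearest in baseMean for 61 genes, and 6 of them were called, all higher (H19, Zscan4c, Calcoco2, Zscan4a, Hoxa10 and Hoxa11). These genes were named after their values were seen. Of the 22 endoderm genes, 8 were among the 61 (Gata4, Gata6, Sox17, Pdgfra, Lama1, Col4a1, Col4a2 and Cubn). Of the 33 imprinted genes, 6 were, among them Meg3, Rian and Igf2, which had log2 fold changes of 4.82 ± 3.39, 2.99 ± 2.13 and 2.26 ± 0.87 in the authors' deposited table without being called. Of the Y-linked genes, Eif2s3y, Ddx3y and Uty had SEs 7.46, 6.70 and 6.45 times the typical value, at 0.54 ± 1.45, 2.36 ± 1.38 and 0.64 ± 1.46 in the authors' deposited table. Which samples were high or low is not shown by these statistics, and the part of this variation in the other results was not tested.

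**Figure D4:**
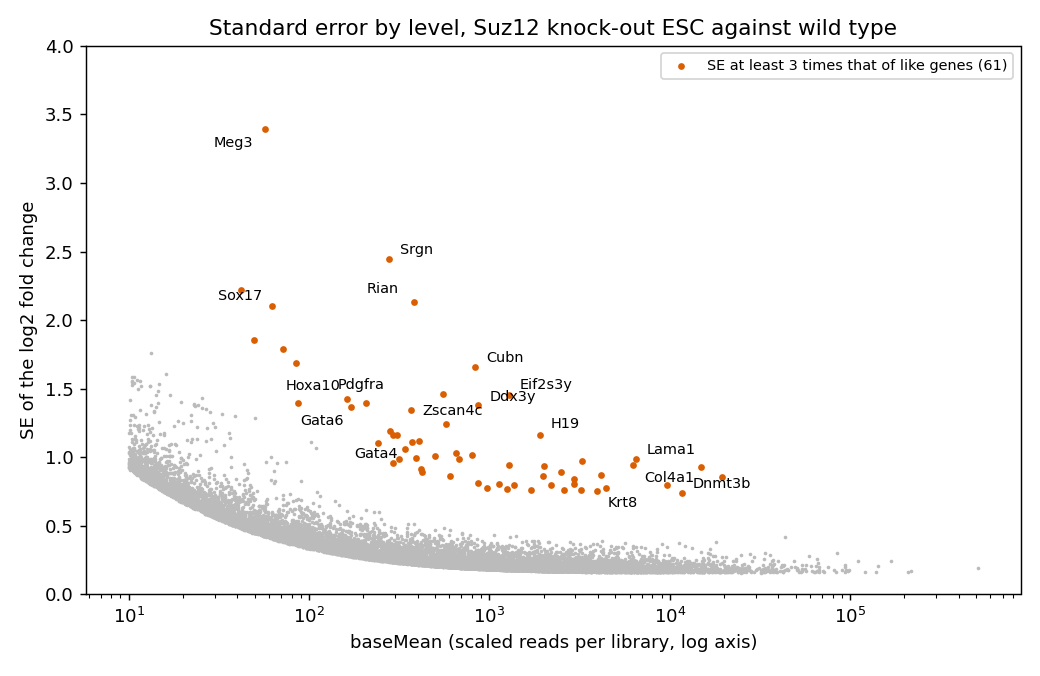
Each point is a gene, with its baseMean on a log axis and the SE of its log2 fold change from the authors' table. The 61 genes with an SE at least 3 times that of genes of like level (orange) lie above the main band, and the labelled ones include endoderm, imprinted and Y-linked genes.

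The other ESC comparisons use the same WT samples, so their values are set beside those of the knock-out without a test between them. Suz12 mRNA itself stood at -1.05 ± 0.28 in KO-L, -0.83 ± 0.27 in KO-S, -1.85 ± 0.28 in KO-L3D and -0.06 ± 0.42 in KO-S3D in the authors' deposited tables. The 12 largest rises of the knock-out had median log2 fold changes of 4.49 in KO-L, -1.21 in KO-S, 3.44 in KO-L3D and 5.05 in KO-S3D in the authors' deposited tables, and 7, 0, 5 and 9 of them were called higher there. The shares of all genes called higher in those tables were 1.37%, 4.22%, 8.27% and 1.96%. In KO-S none of the 12 had an adjusted p from DESeq2 or an unadjusted p under 0.05. Dio3 stood at 3.60 ± 0.83 in KO-L, -0.74 ± 1.87 in KO-S, 4.86 ± 0.67 in KO-L3D and 2.25 ± 1.27 in KO-S3D (the last not called, adjusted p 0.428 from DESeq2) in the authors' deposited tables. Zscan4f stood at 3.73 ± 0.89 in KO-L, -3.91 ± 2.51 in KO-S, 2.21 ± 1.18 in KO-L3D (not called, adjusted p 0.189 from DESeq2) and 4.11 ± 1.01 in KO-S3D in the authors' deposited tables. In KO-S the baseMean of Zscan4f was 5.71 and that of Dio3 6.88, and the SEs are large. Of the 12 largest falls, 4 were called lower in KO-L, 6 in KO-S, 11 in KO-L3D and 7 in KO-S3D, and Nkx6-3 was called higher in KO-S (2.18 ± 0.44 in the authors' deposited table). Foxp1 stood at -0.30 ± 0.33 in KO-L, -0.32 ± 0.28 in KO-S, -2.70 ± 0.31 in KO-L3D and -1.40 ± 0.46 in KO-S3D (the last not called, adjusted p 0.0613 from DESeq2) in the authors' deposited tables. The shares of all genes called lower there were 0.726%, 3.58%, 10.1% and 1.13%. In CSex4 no rise and 2 falls of these were called, with 1 and 4 at an unadjusted p under 0.05, where 1.62% and 0.656% of all genes were called higher and lower. There 10 of the 12 rises had no adjusted p from DESeq2 and so could not be called. Of the 12 rises, 10 had a positive log2 fold change in CSex4 and 2 a negative one (median 1.87 in the authors' deposited table). In Deltaex4 DESeq2 called none of them, as it called no gene of that table (0.00%, lowest adjusted p 1.00), and 2 of the 12 rises and 3 of the 12 falls had an unadjusted p under 0.05, as had 134 genes of the table. This does not show that these genes were at WT level.

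**Figure D5:**
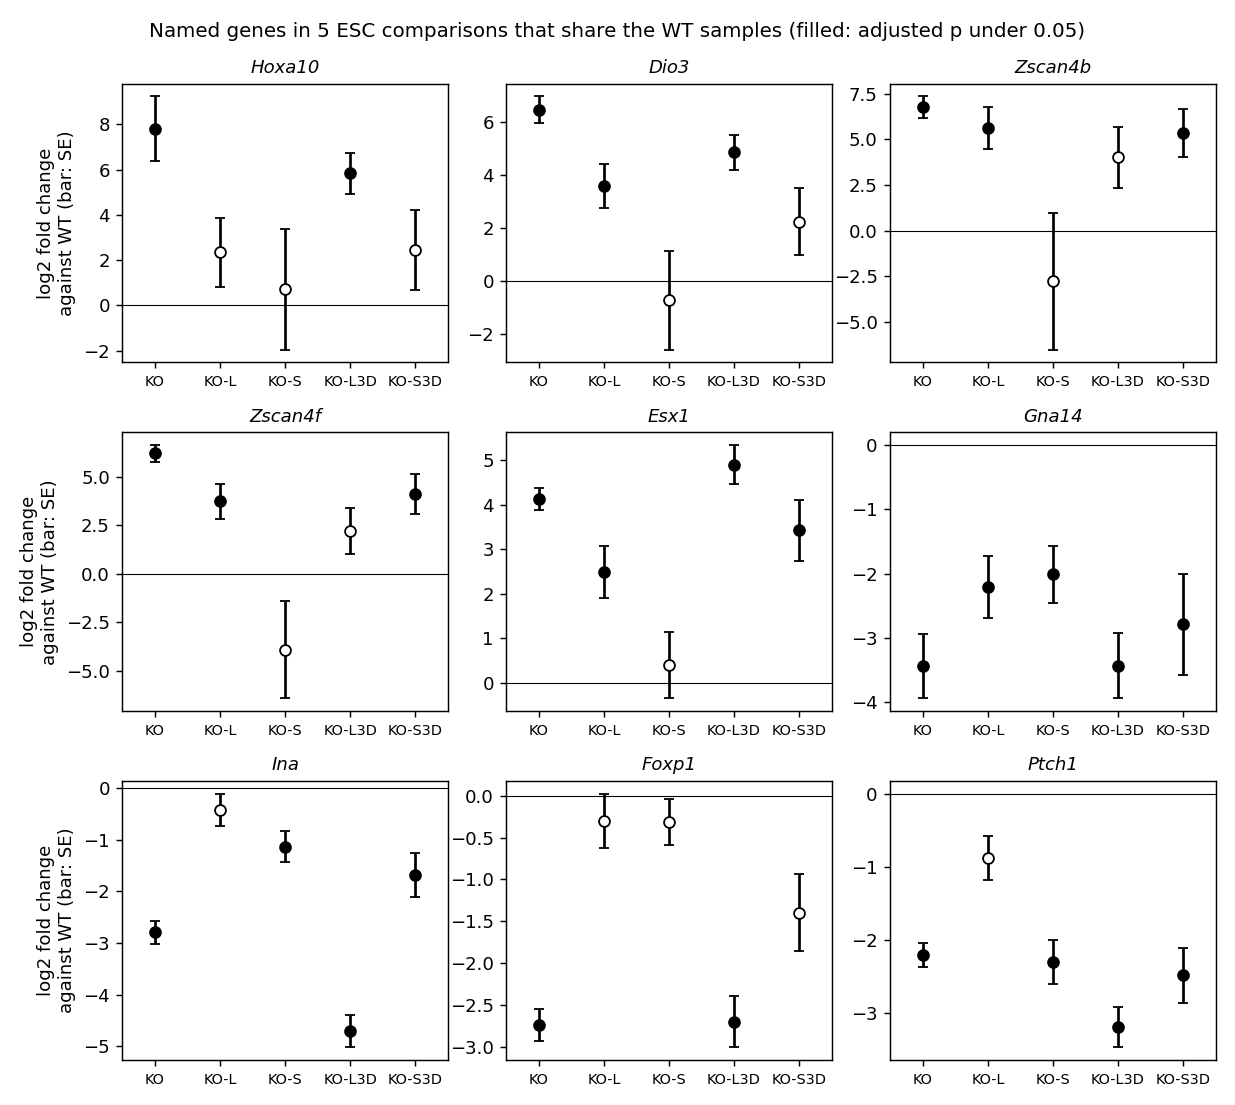
Log2 fold changes against WT with SE bars are plotted for 9 named genes in KO, KO-L, KO-S, KO-L3D and KO-S3D, from the authors' tables. Filled points were called. The points share the WT samples, and the vertical scale differs between panels. The Zscan4 genes lie above zero in KO-L and KO-S3D, and Foxp1 lies near zero in KO-L and KO-S.

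The knock-out was also measured in NP, with no sample in common, so the 2 effects could be compared gene by gene. Of 14631 genes with a baseMean of at least 10 in both tables, 2098 (14.3%) differed between the tissues at an adjusted p under 0.05 (difference of the 2 log2 fold changes over its combined SE, normal test, Benjamini-Hochberg). The ESC effect was the more positive in 1166 (7.97%) and the NP effect in 932 (6.37%). In NP alone, 11.7% of genes were called higher and 9.98% lower. Of the genes called higher in ESC and measured in both, 455 (26.5% of the ESC list and 28.3% of the NP list) were also called higher in NP and 157 were called lower. Of those called lower in ESC, 189 (15.6% of the ESC list and 13.5% of the NP list) were also called lower in NP and 86 were called higher. All 8 2-cell-like genes measured in both had a more positive effect in ESC. So did 13 of 28 Hox genes, 19 of 44 other homeobox and Pax genes and 13 of 19 genes of neuronal structure. Interferon and antigen presentation genes showed the reverse, with a more positive effect in NP for 16 of 19 and in ESC for none. Foxp1 fell in ESC and had 0.11 ± 0.33 in NP, and Ina was lower in both (NP value -4.19 ± 0.49) in the authors' deposited tables. These counts rest on 1 of the 2 pairs of NP wild-type samples. With the other pair 3258 genes differed. Then 741 genes were called higher in both tissues (43.7% of the ESC list and 28.2% of the NP list). Another 324 were called lower in both (26.7% and 13.6%), and 214 and 138 were called higher and lower in ESC with the opposite call in NP. With that pair the effect was more positive in ESC for 11.3% of all genes measured in both and in NP for 11.1%. It was more positive in ESC for 6 of 8 2-cell-like, 14 of 28 Hox and 18 of 19 neuronal genes. It was more positive in NP for 15 of 19 interferon and antigen presentation genes.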

How the data were processed

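PolyA RNA of 3 ESC WT and 3 ESC Suz12 KO samples was compared in the authors' deposited table, 1 of 9 such tables used here. Per the file headers and the submitters' processing notes, the authors made these statistics with DESeq2 (version not given in the sources used here). The authors deposited the baseMean, a signal that averages depth-scaled read counts over the compared libraries, the log2 fold change with its SE, the Wald statistic (a score), the p-value and the adjusted p-value. The notes also name Bowtie, TopHat, DiffBind, mm10 and dm3. The table is named as paired, and its model formula is not given in the sources used here. The region lists of WT H3K27me3 and Suz12 hold positions, which the authors deposited in mm10. The number of samples, the baseMean and the SE set the precision, since library totals are not used here. The values of single samples were not used here, so no model was refitted.

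The calls are the authors' adjusted p under 0.05. Computed here with Python 3.11.15, pandas 2.3.3, numpy 2.4.6 and scipy 1.17.1 (figures with matplotlib 3.10.9) were the implied group means, the ratio of each SE to the median of the 201 genes nearest in baseMean, the promoter classes and CG counts (RefSeq, GRCm38.p6, 300 bases) and the ESC minus NP difference with its normal test, adjusted by Benjamini-Hochberg. The scripts were tested on simulated data. The genes named are Suz12, the 12 largest rises and falls among called genes with a baseMean of at least 100, the 5 smallest adjusted p in each direction, all PRC2 core genes, and per list up to 4 called members with the largest change and up to 3 uncalled ones with the highest baseMean. Genes named beyond this rule, most of them to complete a small count, were chosen after their values were seen, and some genes that the rule names are not reported here. The members and the 30 lists were chosen with earlier results of these data known. Overlapping and near-identical genes may share or split reads, and whether counting used strand is not given in the sources used here. Alternatives changed the adjusted p threshold, the baseMean minimum, the zero line, the fold threshold, the region distance and the NP wild-type pair.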

Additional observations from a re-analysis of the deposited data

Results flagged for a closer look

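For 21 of the 28 rule-named genes tested and reported here, the knock-out effect in ESC differed from that in NP by a test of the difference itself (ESC minus NP log2 fold change, normal test on the combined SE, Benjamini-Hochberg over 14631 genes). These genes were named for large or highly significant effects in ESC, so a difference from NP is more likely among them than among all genes, of which 2098 (14.3%) differed. With this pair of NP wild-type samples the 2 effects had opposite signs in 15 of them. With the other pair the NP effect of 8 of the 15 was positive, as in ESC, and 7 had opposite signs.

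The effect was far more positive in ESC for the Zscan4 genes, by 8.75 for Zscan4b, 8.52 for Zscan4a, 8.09 for Zscan4c, 8.14 for Zscan4d and 7.73 for Zscan4f, and by 8.02 for Gm21761. The sign of the NP effects of these genes differed between the wild-type pairs. Implied ESC WT levels of the 5 Zscan4 genes were 4.45 to 9.34 scaled reads, and their NP baseMean with this pair was 357 to 588. The part of these unlike levels in the size of the differences was not tested. Zscan4f had 6.20 in ESC and -1.53 in NP (adjusted p 0.0491 from DESeq2 in the authors' deposited table), but 1.55 in NP with the other wild-type pair (adjusted p 0.0493). The difference was 9.11 for Tmem92, 10.4 for Gm36718, 5.81 for Gm5662 and 4.97 for Cbln1. That of Tmem92 rests on an ESC fold from an implied 0.667 scaled reads in WT, so its size is not well defined. The NP effect of Tmem92 was -0.75 with this pair and 2.15 with the other (adjusted p 0.461 and 0.00526 from DESeq2 in the authors' deposited tables). That of Gm5662 was -0.53 and 2.38 (adjusted p 0.627 and 7.97e-04). Gm36718 and Cbln1 had negative values in NP with both pairs. Genes that were positive in both tissues and more so in ESC were Dio3 (difference 3.37), Esx1 (3.19), Osr2 (3.43) and Xlr3a (2.30). Emp1 was positive in both and more so in NP, with a difference of -1.20.

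Among the falls, the effect was more negative in ESC by -4.50 for Gna14, -4.12 for Slc39a8, -3.33 for Naprt, -3.73 for Slc27a2 and -2.85 for Foxp1, and each of these had a positive value in NP with both pairs. Ptch1 was negative in both (-2.20 in ESC and -0.57 in NP; difference -1.63). Adjusted p values were 0.0465 for Osr2, 0.0441 for Emp1, 0.0423 for Xlr3a and 0.00108 or lower for the rest. With the other pair of NP wild-type samples the difference of Osr2 was 2.71 (adjusted p 0.0919), and the other 20 kept their direction and their side of the threshold.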

How the results depend on the processing

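No paired analysis was possible because the tables give comparison statistics without values of single samples. For the same reason a refit with another tool and leaving out each replicate were not run, and the stricter region threshold was not run because the value in the region lists was not used. The 3019 calls became 1894 at an adjusted p under 0.01, where 654 were lower in place of 1230. With a baseMean of at least 100, 1069 genes were higher in place of 1789. With the zero set on genes with a baseMean of at least 1000, 538 were lower. The share of higher calls was 59.3%, and 65.5%, 47.9% and 82.5% in these 3 settings. The 1638 calls of at least 1 on the log2 scale became 2897 at 0.5, 687 at 2 and 857 with a baseMean of at least 100. With that minimum, 40.2% of genes in Suz12 regions (36.2% before), 6.11% in neither region (7.64%), 14.9% with at most 10 CG (17.2%) and 9.16% with 31 or more (10.9%) were called higher. The other NP pair gave 3258 differences in place of 2098. The cause of these shifts beyond the smaller or larger sets was not tested. With the minimum of 100 the split turned to 1069 higher and 1164 lower, and with the other NP pair the NP effect of 8 of the named genes changed sign. The 31 rule-named genes kept their call under both other zero lines, and 506 of 536 list members did with the zero on abundant genes. Of 60 list counts, 13 moved by more than 1.5 times with the higher minimum and 8 with that zero. Placing genes by either end, an alternative added after seeing the data, gave 36.7%, 22.7% and 7.94% higher in the 3 classes. Folds of genes with few WT reads are limited by depth.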
